A study of Rattus norvegicus with 10 samples.

Results

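The genes described here encode the machinery that takes newly made proteins into the endoplasmic reticulum and carries them between it and the Golgi. They were chosen by symbol alone, from the platform annotation of a rat expression array: the subunits of the COPI coat, the GTPases Arf1 to Arf6, the Tmed genes of the p24 family, the GTPases Sar1a and Sar1b, genes with the symbols Sec13, Sec16, Sec22, Sec23, Sec24, Sec31, Sec61, Sec62 and Sec63, and Ssr1 to Ssr4. The array holds 78 probe sets for 48 of these genes, among 31042 probe sets and 14217 singly named genes in all. By role they fall into 12 probe sets of the Sec61, Sec62 and Sec63 translocon (6 genes), 7 of the translocon-associated protein (TRAP) complex (4 genes), 15 of the COPII coat and Sar1 (10 genes), 6 of the Sec22 family (3 genes), 15 of the p24 family (10 genes), 13 of the COPI coat (9 genes) and 10 of the Arf GTPases (6 genes). For 25 genes there was 1 probe set and for 23 there were more, up to 4.

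Total RNA came from A7r5, a smooth muscle line made from embryonic rat aorta, grown without hypoxia to about 50% confluence with 10% serum. The 5 groups of 2 arrays were cells stably transfected with an empty vector (titled native expression in the labels), with wild-type human BMPR2, or with BMPR2 carrying 2579-2580delT in the cytoplasmic tail (CD mutant), C994T in the kinase domain (KD mutant) or T354G in the extracellular domain (ED mutant). BMPR2 is a type II receptor of bone morphogenetic proteins, and the transfected cells keep their own rat gene. The sources used here do not say whether a group was 1 clone or a pool of cells, nor which promoter drove the construct. The labels do not call the arrays of a group separate cultures, so the p-values measure only how far these arrays spread, and that spread may be technical. In RNA from whole cultures, fewer cells of a type and less RNA per cell cannot be told apart.

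A protein with a signal sequence enters the endoplasmic reticulum through the Sec61 channel, with Sec62 and Sec63 assisting some clients and the TRAP complex sitting beside the channel. Cargo leaves at exit sites where Sar1 recruits the inner coat of Sec23 and Sec24, which binds cargo, and the outer coat of Sec13 and Sec31, with Sec16 as a scaffold. Arf1 and its relatives recruit the COPI coat, which returns escaped proteins and receptors to the endoplasmic reticulum. The p24 proteins cycle in both kinds of vesicle and take part in sorting cargo, and Sec22b is a membrane fusion protein (SNARE) of the same route. A secretory cell raises many of these genes together when it makes more protein for export, and transcription factors of the unfolded protein response act on some of their promoters.

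Promoters of the set were therefore read for the letters of known elements of that response. RefSeq promoter windows of the rat assembly GRCr8, which run from 250 bases before to 50 bases after the annotated start, were on hand for 43 of the 48 genes. The core of the unfolded protein response element, TGACGTGG on either strand, lay in 5 of these 43 genes (11.6%), against 199 of 33469 promoters in all (0.595%). The genes were Arf4, Copa, Copb2, Copb1 and Arf1. The member share counts genes, and the share in all counts promoter windows. The ER stress response element, CCAAT and CCACG separated by 9 bases on either strand, lay in 0 of the 43 and in 22 promoters in all (0.0657%). The 4 windows whose genes differed most upward on the arrays labelled KD mutant are shown on the gene's strand with the matching letters in capitals. These are chr16:1903186-1903485 on the plus strand for Arf4, chr13:87078618-87078917 on the plus strand for Copa, chr8:108040437-108040736 on the plus strand for Copb2 and chr1:177872791-177873090 on the minus strand for Copb1.
Arf4: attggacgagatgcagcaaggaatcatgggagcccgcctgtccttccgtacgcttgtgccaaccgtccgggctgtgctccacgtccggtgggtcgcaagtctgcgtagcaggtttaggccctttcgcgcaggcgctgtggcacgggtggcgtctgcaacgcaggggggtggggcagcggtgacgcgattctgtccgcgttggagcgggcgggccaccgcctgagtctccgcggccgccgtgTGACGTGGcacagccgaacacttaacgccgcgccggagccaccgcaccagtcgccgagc
Copa: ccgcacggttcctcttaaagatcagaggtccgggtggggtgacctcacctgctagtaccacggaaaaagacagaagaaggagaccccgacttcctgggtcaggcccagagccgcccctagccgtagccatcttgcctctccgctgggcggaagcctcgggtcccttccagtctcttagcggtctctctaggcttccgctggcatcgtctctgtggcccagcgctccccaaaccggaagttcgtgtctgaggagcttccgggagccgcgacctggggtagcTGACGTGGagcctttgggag
Copb2: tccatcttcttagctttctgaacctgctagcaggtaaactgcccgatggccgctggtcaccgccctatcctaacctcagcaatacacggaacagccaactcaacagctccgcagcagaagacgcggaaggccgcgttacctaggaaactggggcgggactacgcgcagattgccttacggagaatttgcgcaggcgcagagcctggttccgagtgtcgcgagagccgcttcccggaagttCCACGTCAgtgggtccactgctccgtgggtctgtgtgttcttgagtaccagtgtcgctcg
Copb1: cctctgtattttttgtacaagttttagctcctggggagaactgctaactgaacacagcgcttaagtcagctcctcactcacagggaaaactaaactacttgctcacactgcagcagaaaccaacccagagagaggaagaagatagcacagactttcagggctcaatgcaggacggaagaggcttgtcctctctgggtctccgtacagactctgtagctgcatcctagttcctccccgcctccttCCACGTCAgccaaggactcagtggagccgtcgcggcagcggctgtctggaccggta
The match begins 9 bases before the start in Arf4, 10 before it in Copb2, 6 before it in Copb1 and 30 after it in Copa, and in Copb2 and Copb1 it reads CCACGTCA because it lies on the other strand. A match describes these letters and not a factor's binding, and no binding was measured here.

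Values are log2 summaries per probe set as the authors deposited them. Of the 78 probe sets, 74 of 47 genes passed the filter on dim probe sets, which asks for log2 4.82 on at least 2 arrays. The 4 that did not were 1 each of Sec63, Sec16b, Copg2 and Arf2. Of the 74, 9 reached that level on fewer than 2 of the other 8 arrays and so were tested because of the KD mutant arrays. A probe set is called changed here at an adjusted p under 0.05 in limma. Levels of different probe sets depend on their probes and do not rank genes.

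Across all probe sets, the 2 arrays with the KD mutant label were unlike the other 8. Their correlation with the others was 0.711 to 0.721, against 0.992 to 0.996 among the others and 0.992 between the pair, and their medians were 4.94 and 4.95 against 5.32 to 5.36. Markers moved with this split. For each marker gene, the probe set brightest over the 10 arrays was taken, KD mutant arrays included. The mean of 11 smooth muscle genes was 5.86 to 6.01 on the other 8 arrays and 8.66 and 8.87 on the KD mutant pair, and 8 of the 11 were higher on the pair. Of these defining genes, Cnn1, Actg2 and Lmod1 had means under the filter level on the other 8 arrays. Tpm2 was at 4.76 there and 11.31 on the pair by this probe set, but at 6.01 and 4.61 by its other one. The mean of 9 fibroblast genes was 4.88 to 5.09 and 7.8 to 7.86, with 5 of 9 higher on the pair, and that of 10 epithelial genes 6.95 to 7.2 and 5.99 to 6, with 2 of 10 higher. Their part in the results was not tested. Comparisons without the KD mutant are given first, and those with it apart.

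Among empty vector, wild type, CD mutant and ED mutant, the trafficking genes differed little. The means of these 4 groups lay within 0.5 of each other on the log2 scale in 69 of 74 tested probe sets (93.2%, against 96.8% of all tested probe sets) and within 1 in 74 of 74 (99.9% of all). The median range of the 4 means was 0.25, against 0.2 over all tested probe sets. The SD of a member over the 8 arrays had a median of 0.127 and ran from 0.0259 for Arf1 by 1367459_at to 0.303 for Tmed5.

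Tmed2 was the exception. It encodes a p24 receptor that forms complexes with Tmed10 and other members of the family. Its brighter probe set (1398824_at) read 11.11 and 11.04 with empty vector, 10.73 and 10.58 with wild type, 10.60 and 10.69 with the CD mutant and 10.39 and 10.22 with the ED mutant. All 6 arrays with a receptor construct lay below both empty vector arrays, and the ED mutant arrays lay below all others of the 8. In the ED mutant against empty vector it fell by 0.77 (SE 0.107, 95% interval -1.01 to -0.54, adjusted p = 0.00899 in limma), a 1.71-fold difference. It was the 1 of 74 members called there, where 0.529% of all tested probe sets were called and 0.16% were called lower. Without adjustment, 16 members had a p under 0.05 in limma (21.6%, against 11.4% of all). In the mean of the 3 receptor groups against empty vector it fell by 0.54 (adjusted p = 0.0382 in limma), again as the 1 member called, with 0.2% called over all and 0.0622% called lower. It was also the 1 member in the test for any difference among the 4 groups (adjusted p = 0.0419 in limma, 0.369% called over all). The epithelial marker Cdh1 was called in both of these tests, 0.62 higher in the receptor groups (adjusted p = 0.0361 and 0.0184 in limma), and Krt19 in the latter (0.0419), and their part was not tested. These 3 tests share the empty vector arrays and are not separate evidence.

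The Tmed2 calls rested on few arrays. For the ED mutant against empty vector, the adjusted p in limma was 0.153 without empty vector replicate 1, 0.0661 without empty vector replicate 2, 0.0491 without ED mutant replicate 1 and 0.109 without ED mutant replicate 2, with differences between -0.86 and -0.69. The call on the 3 receptor groups was lost without any 1 of the 8 arrays (adjusted p from 0.0643 to 0.669) and without the filter (0.0614). That on any difference was lost in the same ways (0.0851 to 0.341, and 0.0667). The second probe set of Tmed2 (1389940_at) read 8.76 and 8.68 with empty vector, 8.68 and 8.61 with wild type, 8.59 and 8.63 with the CD mutant and 8.50 and 8.59 with the ED mutant. Its ED mutant arrays lay below both empty vector arrays too, but the difference was -0.17 (95% interval -0.38 to 0.04, adjusted p = 0.567 in limma). Markers moved with the ED mutant as well: against empty vector, 1 of 13 tested smooth muscle probe sets rose, Mylk by 0.67 (adjusted p = 0.0197 in limma), and 1 of 8 epithelial ones, Cdh1 by 1.01 (adjusted p = 0.00364 in limma). Their part in the Tmed2 difference was not tested.

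**Figure D1:**
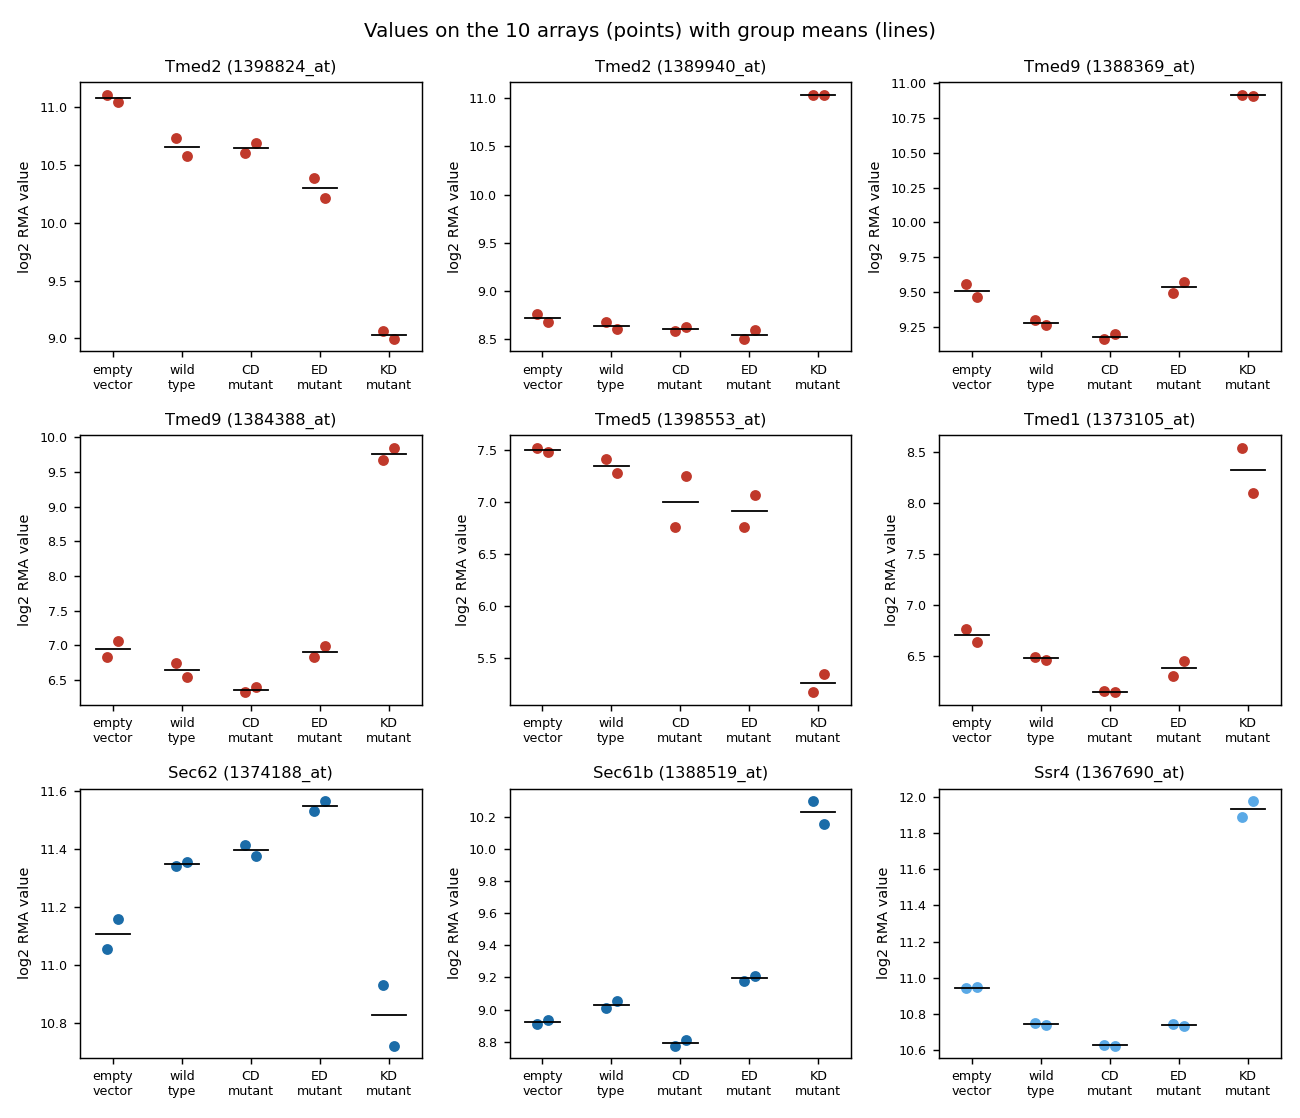
Log2 RMA value (vertical axes, each with its own range) of 9 member probe sets in the 5 groups (horizontal axes), with 1 point per array and a line at each group mean. Tmed2 by probe set 1398824_at steps down from empty vector at 11.11 and 11.04 to the ED mutant at 10.39 and 10.22, while by probe set 1389940_at the KD mutant arrays lie highest at 11.03 and 11.04.

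No other comparison without the KD mutant called a member. Wild type against empty vector called 0 of 74 (0.0133% of all tested), and 8 had an unadjusted p under 0.05 in limma (10.8%, against 6.54% of all). The CD mutant against wild type called 0 (0% of all), with 6 unadjusted (8.11% against 3.48%), and the ED mutant against wild type called 0 (0.164% of all), with 10 unadjusted (13.5% against 7.65%). The CD mutant against empty vector called 0 (0.111% of all), with 16 unadjusted (21.6% against 8.74%), and the ED mutant against the CD mutant called 0 (0.351% of all), with 9 unadjusted (12.2% against 9.39%). Groups of 2 arrays often did not overlap: this held for 38 members (51.4%, against 42% of all tested) between wild type and empty vector, 35 (47.3% against 34.1%) between the CD mutant and wild type and 39 (52.7% against 42.1%) between the ED mutant and wild type. It held for 42 (56.8% against 41.1%) between the CD mutant and empty vector, 48 (64.9% against 45%) between the ED mutant and empty vector and 38 (51.4% against 41%) between the ED and CD mutants. With limma's intensity trend and robust variance, the calls went from 0 to 1 for wild type against empty vector, 3 for the CD mutant against empty vector and 4 for the ED against the CD mutant. In a simulation of the ED mutant against empty vector over 22502 probe sets, 25.8% of changes of 0.5 were recovered and 89.6% of changes of 1, so differences of the sizes given next could be missed. The other comparisons were not simulated, and these shares hold for this 1 alone.

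Other p24 members differed without a call. Tmed9, another cargo receptor of the family, read by its dimmer probe set (1384388_at) 6.83 and 7.07 with empty vector, 6.75 and 6.54 with wild type, 6.32 and 6.4 with the CD mutant and 6.83 and 6.98 with the ED mutant. The CD mutant arrays lay below the other 6. The CD mutant differed from empty vector by -0.59 (95% interval -0.86 to -0.32, adjusted p = 0.167 in limma) and the ED mutant from the CD mutant by 0.55 (0.28 to 0.82, adjusted p = 0.126). The brighter probe set of Tmed9 (1388369_at) also had the CD mutant arrays lowest, at 9.16 and 9.19, and the ED mutant at 9.50 and 9.57, a difference of 0.36 (adjusted p = 0.212 in limma).

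Tmed1, a p24 member that binds an interleukin-1 receptor relative, read 6.76 and 6.65 with empty vector, 6.50 and 6.47 with wild type, 6.16 and 6.15 with the CD mutant and 6.31 and 6.45 with the ED mutant. Both empty vector arrays were highest and both CD mutant arrays lowest, a difference of -0.55 that missed the threshold (95% interval -0.85 to -0.25, adjusted p = 0.238 in limma). Tmed5 read 7.52 and 7.48 with empty vector and 6.76 and 7.07 with the ED mutant, with a difference of -0.59 (adjusted p = 0.156 in limma). Its CD mutant arrays, at 6.76 and 7.25, lay further apart than those of the other 3 groups. Tmed4 by its dimmer probe set (1376161_at) had the lowest p of the members in the CD mutant against wild type, at 4.48 and 5.04 against 5.16 and 5.31 (difference -0.48, adjusted p = 1 in limma), and its CD mutant arrays differed by more than that.

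In the translocon, Sec62 by its brighter probe set (1374188_at) stood at 11.05 and 11.16 with empty vector, 11.34 and 11.36 with wild type, 11.42 and 11.38 with the CD mutant and 11.53 and 11.57 with the ED mutant. No group overlapped another, and the ED mutant was highest. The ED mutant differed from empty vector by 0.44 (95% interval 0.21 to 0.67, adjusted p = 0.106 in limma), which passed when the KD mutant arrays were left out of filter and fit (adjusted p = 0.0361). Sec63, the channel partner that recruits the chaperone BiP, differed by 0.38 between wild type (6.38 and 6.4) and empty vector (5.96 and 6.06) by probe set 1384519_at (adjusted p = 0.439 in limma). Its 2 other tested probe sets gave no common direction: 1390115_at read 6.82 and 6.77 against 6.60 and 6.61, and 1374917_at 5.36 and 5.68 against 6.02 and 5.77. Sec61b, the small beta subunit of the channel, read 8.91 and 8.94 with empty vector, 9.01 and 9.05 with wild type, 8.78 and 8.81 with the CD mutant and 9.18 and 9.21 with the ED mutant. No group overlapped another, and the ED mutant stood 0.40 above the CD mutant (95% interval 0.19 to 0.62, adjusted p = 0.152 in limma). In that comparison 2 of 8 epithelial marker probe sets rose, Krt18 by 0.52 and Krt19 by 0.72 (adjusted p = 0.0482 and 0.0132 in limma), and their part was not tested.

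The TRAP genes lay lower with a receptor than with empty vector in several probe sets, none of which was called. Ssr4, the delta subunit, read 10.94 and 10.95 with empty vector, 10.75 and 10.74 with wild type, 10.63 and 10.63 with the CD mutant and 10.74 and 10.74 with the ED mutant. Both empty vector arrays lay above the other 6, and the CD mutant differed from empty vector by -0.32 (95% interval -0.53 to -0.11, adjusted p = 0.325 in limma). Ssr1, the alpha subunit, differed by -0.37 between wild type and empty vector by probe set 1390767_at, near the filter level (4.84 and 4.56 against 5.11 and 5.04, adjusted p = 0.647 in limma). Over the 7 TRAP probe sets the median difference from empty vector was -0.12 for wild type, -0.14 for the CD mutant and -0.18 for the ED mutant, against medians of -0.002, 0.001 and -0.004 over all tested probe sets. The 3 values share the empty vector arrays.

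The COPI coat, the COPII coat and the Arf GTPases held no called member either. Copa, the alpha subunit of the coat, stood at 4.87 and 5.19 with the ED mutant and 4.48 and 4.74 with wild type, a difference of 0.42 near the filter level (adjusted p = 0.4 in limma). Copb1, the beta subunit, read 9.20 and 9.16 against 8.88 and 8.90, a difference of 0.29 (adjusted p = 0.473 in limma). Arf1, the GTPase that recruits the coat, read 13.04 on both empty vector arrays and 13.06 and 13.01 with the ED mutant by its brighter probe set (1367459_at), and the means of the 4 groups spanned 0.03. Its other probe set (1398817_at) read 11.82 and 11.78 with empty vector and 11.69 and 11.47 with the ED mutant, and the 4 means spanned 0.26. In the ED mutant against empty vector the median difference was -0.07 over 12 COPI, 0.02 over 14 COPII and Sar1 and -0.003 over 9 Arf probe sets. Sar1b read 10.34 to 10.47 over the 8 arrays.

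**Figure D2:**
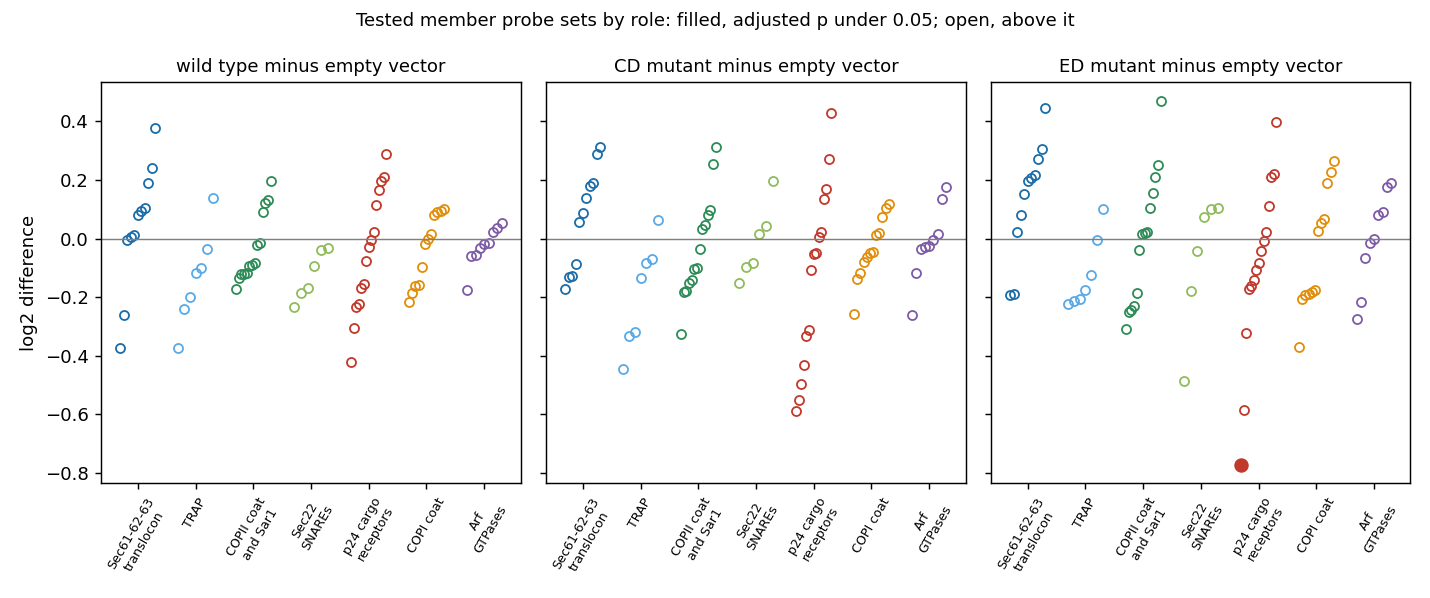
Log2 difference from empty vector (vertical axis) of the 74 tested member probe sets, by role (horizontal axis), in wild type, CD mutant and ED mutant, which share the empty vector arrays. Filled points passed an adjusted p of 0.05, which holds for Tmed2 in the ED mutant at -0.77, and open points did not.

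Taking the 6 arrays with wild type, CD or ED receptor together, 22 of 74 members (29.7%) had no overlap with the 2 empty vector arrays, against 13.5% of all tested probe sets. Of these, 7 lay above both empty vector arrays (9.46%, against 6.19% of all) and 15 below (20.3%, against 7.32%). The TRAP complex had 4 of 7 probe sets below (for Ssr1, Ssr4 and 2 probe sets of Ssr3) and 0 above. The p24 family had 4 of 15 below, for Tmed1, Tmed5 and both probe sets of Tmed2, and 2 above, for Tmed7 and Tmed8. The dimmer Tmed2 probe set (1389940_at) counted by a narrow margin, with wild type replicate 1 at 8.675 and empty vector replicate 2 at 8.676. The translocon had 3 of 11 above, for Sec62 and 2 probe sets of Sec63, and 1 below, for Sec61a2. In the COPII coat Sar1a appeared on both sides, with 1 probe set above and 1 below. Sec24c lay above by 1395802_at, and Sec13 and Sec16a (1398959_at) below. The COPI subunits Arcn1 (1391658_at) and Copz1 (1394565_at) and the GTPase Arf1 (1398817_at) lay below. The other tested probe sets of Sec24c, Sec16a, Arcn1, Copz1 and Arf1 overlapped empty vector. Sec62, Ssr1 and Tmed7 likewise counted by 1 probe set each, and their other tested probe sets overlapped. Of these 22, Tmed2 by its brighter probe set was the 1 that passed the test on the mean of the 3 receptor groups.

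Against wild type, the arrays labelled KD mutant differed in most members, as in most of the array. Of 74 members 66 were called, against 89.6% of all tested probe sets, with 48 higher (34.5% of all were higher) and 18 lower (55.1% of all). The median difference was 1.00 over the members and -0.56 over all tested probe sets. These counts include the 9 members that passed the filter through the KD mutant arrays and so had to lie higher there. For those 9, levels are given here with no test. Among the other 65, 39 were higher (60%, against 27% of all probe sets that reached the filter level without these arrays) and 18 lower (27.7%, against 61.5%), with a median difference of 0.89 against -0.78. Rises over 2 on the log2 scale were seen for 20 members (15.3% of all), rises over 4 for 8 (4% of all) and falls over 2 for 2 (3.06% of all). Among the 65, the rises over 2 were 14 (21.5% against 9.02%) and those over 4 were 4 (6.15% against 1.76%). Without any filter, 48 of 78 were higher and 22 lower. After centring each array on its median the members had 51 higher and 12 lower, so that 81% of the called members were higher in place of 72.7%, with 48.2% in place of 38.5% over all probe sets. The median over all probe sets was then -0.10. After quantile normalization there were 46 higher and 24 lower, so that 65.7% of the called members were higher, with 38.1% over all probe sets. The shares after centring and quantile normalization include probe sets that passed the filter through the KD mutant arrays. They were not counted without those probe sets.

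In the translocon 7 of 11 probe sets were higher and 2 lower. Here and in the roles that follow, the share over all such probe sets was 27% higher and 61.5% lower. Sec61g, the small gamma subunit of the channel, rose from 7.37 and 7.63 in wild type to 13.40 and 13.24 (difference 5.82, SE 0.117, adjusted p = 1.61e-12 in limma). Its other 8 arrays ran from 7.37 to 7.63 with a median of 7.48. Sec61b rose to 10.30 and 10.16 and the 3 tested probe sets of Sec63 by 0.69 to 1.16. Sec62 by its brighter probe set fell by 0.52, to 10.93 and 10.72 (adjusted p = 0.000482 in limma), but after centring the difference was -0.13 and was not called (adjusted p = 0.265). Its other probe set differed by 0.15 and was not called.

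In the TRAP complex, of 6 probe sets that reached the filter level without the KD mutant arrays, 5 were higher and 1 lower. Ssr1 rose by 3.65 by probe set 1390767_at, from 4.84 and 4.56 to 8.43 and 8.26. Its other probe set, under the filter level on all of the other 8 arrays, read 10.70 and 10.82. Ssr2, the beta subunit, rose by 0.71 and Ssr4 by 1.19, to 11.89 and 11.98. Ssr3, the gamma subunit, rose by 6.50 by probe set 1388777_at, from 5.38 and 5.78 to 12.10 and 12.04, and by 2.92 by 1375652_at, but fell by 1.69 by 1369718_at, from 8.16 and 8.0 to 6.67 and 6.11 (adjusted p = 6.17e-07 in limma).

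The COPII coat and Sar1 differed in both directions, with 4 higher and 5 lower of the 12 probe sets that reached the filter level without the KD mutant arrays. Sar1a rose by 1.01 by probe set 1367470_at, to 11.22 and 11.29, and differed by 0.05 by the other, which was not called. Sar1b, its paralog, fell by 0.50 to 9.88 and 9.91. Among the cargo-binding Sec24 subunits, both probe sets of Sec24c were not called (-0.18 and -0.20), and Sec24d fell by 1.32, from 6.78 and 6.83 to 5.36 and 5.61 (adjusted p = 1.37e-06 in limma). Sec24b, under the filter level on all of the other 8 arrays, read 7.64 and 7.68 by 1 probe set and 6.48 and 6.22 by the other. Sec23b rose by 1.00 and Sec13 by 0.68. Both probe sets of the scaffold gene Sec16a fell, by 0.58 and 0.28, and the latter turned positive after centring.

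The outer coat gene Sec31a had a probe set on which the 2 KD mutant arrays disagreed. By 1367753_at they read 6.34 and 7.81 against 6.20 and 6.17 in wild type. The difference of 0.89 was called (adjusted p = 0.0241 in limma), and without KD mutant replicate 2 it was 0.15 and was not (adjusted p = 0.347). It was not called without either wild type array (adjusted p = 0.0669 and 0.0741). Its other probe set, 1377087_at, fell by 1.84, from 6.25 and 6.38 to 4.28 and 4.68 (adjusted p = 5.05e-07 in limma).

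Of the 3 Sec22 probe sets that reached the filter level without the KD mutant arrays, 1 was higher, 1 lower and 1 not called. Sec22b rose by 2.00, from 7.31 and 7.47 to 9.54 and 9.26. Its other probe set, at most 4.23 on the other 8 arrays, read 10.45 and 10.45. Sec22a fell by 1.04, to 6.67 and 6.38. Sec22c differed by -0.10 by probe set 1384463_at, which was not called, and read 5.06 and 5.30, and 5.46 and 5.20, by those that were under the filter level on the other 8 arrays.

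In the p24 family, 8 were higher and 5 lower of the 13 probe sets that reached the filter level without the KD mutant arrays. Tmed7 by probe set 1373862_at read 11.62 and 11.77 and Tmed3 9.44 and 9.53, where all of the other 8 arrays were under the filter level. Tmed9 rose by 3.12 and 1.64, Tmed4 by 2.35 and 2.21, Tmed1 by 1.84 and Tmed8 by 0.55. Tmed10, the partner of Tmed2 in p24 complexes, rose by 1.60, to 10.88 and 11.11. Tmed5 fell by 2.09, to 5.17 and 5.34 (adjusted p = 1.07e-07 in limma), and Tmed6 fell by 1.51, to 4.19 and 4.06, under the filter level.

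In the COPI coat 10 of 12 probe sets were higher and 2 lower (27% and 61.5% over all). Each of its 9 genes had a probe set that rose, but no such share was counted over all genes. Copa rose by 5.68, from 4.48 and 4.74 to 10.26 and 10.32 (adjusted p = 3.43e-12 in limma). Copb2, the beta-prime subunit, rose by 3.53, from 7.21 and 7.19 to 10.82 and 10.64, and Copz2, a zeta subunit, by 3.89, from 6.35 and 6.34 to 10.30 and 10.17. Smaller rises were those of Copg1 by 1.62 and 1.87, Cope by 1.11 to 11.52 and 11.40, Copg2 by 0.94 and Copb1 by 0.59. Arcn1, the delta subunit, rose by 3.56 and Copz1, the other zeta subunit, by 1.02, each by 1 of its 2 probe sets. Of the 5 genes whose promoters held the core element, Arf1 fell by both probe sets (-0.91 and -0.24). The others rose, by 0.59 for Copb1 to 7.88 for Arf4. By probe set, 39 of the 65 members that reached the filter level without the KD mutant arrays were higher (60%). That share counts probe sets and the 5 above are genes, so the 2 counts differ in unit and cannot be set against each other. The element's part in these differences was not tested.

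Of the 8 Arf probe sets that reached the filter level without the KD mutant arrays, 4 were higher and 2 lower. Arf4, a GTPase that acts with Arf1 at the early Golgi, had the largest difference of all members, from 5.39 and 5.41 in wild type to 13.25 and 13.30 (difference 7.88, SE 0.0965, 235-fold, adjusted p = 1.76e-13 in limma). The other 8 arrays ran from 5.33 to 5.59. Arf2 rose by 1.79 by probe set 1388813_at, Arf3 by 1.52 by 1 probe set, and Arf5 by 0.90. Both probe sets of Arf1 were lower, by 0.91 (1398817_at) and 0.24 (1367459_at, to 12.78 on both arrays), and the smaller difference became 0.15 after centring. It was not called without either wild type array or without KD mutant replicate 1 (adjusted p = 0.115, 0.0709 and 0.051 in limma). Arf6, which works at the plasma membrane, differed by -0.17 and was not called.

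**Figure D3:**
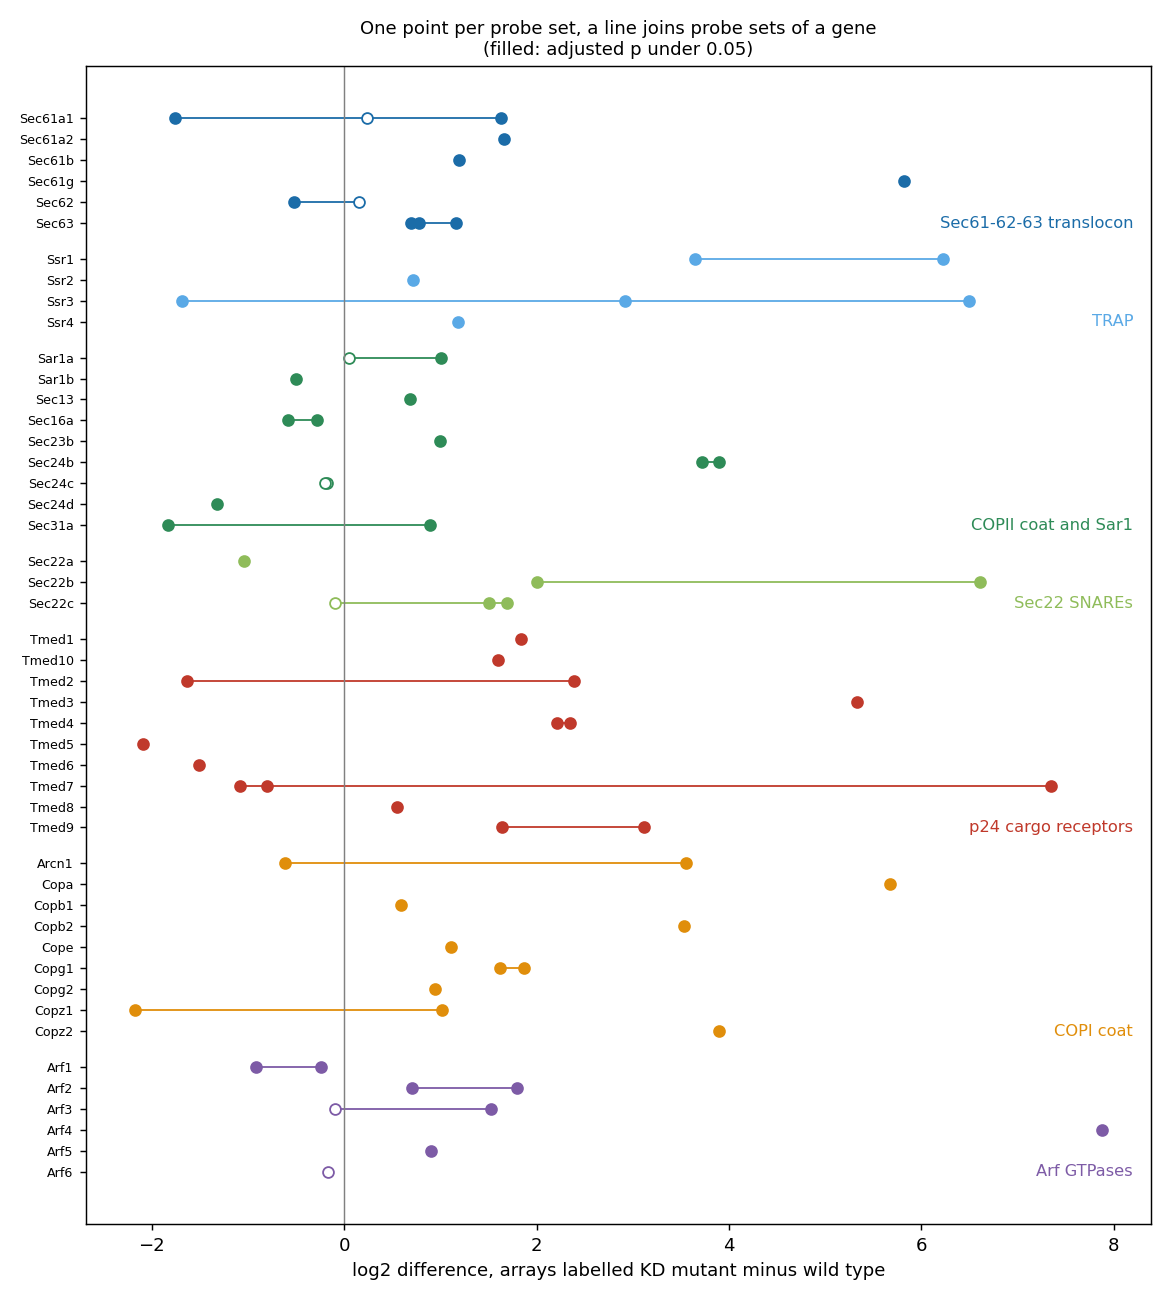
Log2 difference of the arrays labelled KD mutant from wild type (horizontal axis), with 1 point per tested probe set, genes in rows by role, filled where adjusted p was under 0.05, and a line joining the probe sets of a gene. The 9 probe sets tested through the KD mutant arrays are among the points. Arf4 lies farthest to the right at 7.88, and the lines of Tmed7 and Ssr3 cross zero and span more than 8.

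Probe sets of the same gene often disagreed on these arrays. Of 22 member genes with at least 2 tested probe sets, 7 had probe sets called in both directions (31.8%, against 34.1% of 3376 such genes in all), and in 9 the differences lay over 2 apart (40.9% against 38.3%). Both shares lay near the background. The counts and their background include probe sets tested through the KD mutant arrays, which had to lie higher there. Tmed7 was in the first count, and Tmed7, Ssr1 and Sec22b in the second, only through such a probe set. The 7 were Sec61a1, Ssr3, Sec31a, Tmed2, Tmed7, Arcn1 and Copz1. Tmed2 rose by 2.39 by probe set 1389940_at, to 11.03 and 11.04, and fell by 1.63 by 1398824_at, to 9.06 and 8.99 (adjusted p = 3.89e-10 and 2.93e-08 in limma). Tmed7, at 11.62 and 11.77 by the probe set tested through these arrays, fell by 1.09 and 0.80 by the other 2. Copz1 fell by 2.18 by probe set 1394565_at, from 9.57 and 9.36 to 7.20 and 7.38, and rose by 1.02 by the other, to 10.01 and 10.02. For Arcn1 the rise of 3.56 stood beside a fall of 0.61, which was not called after centring (-0.22, adjusted p = 0.162 in limma). Sec61a1, the alpha subunit that forms the channel, rose by 1.63 by probe set 1371368_at, to 11.04 and 11.14, and fell by 1.76 by 1395675_at, to 5.59 and 5.01. The remaining probe set (1382615_at) differed by 0.24, which was not called (adjusted p = 0.0525 in limma), and by -0.41 after quantile normalization. For these 7 genes no direction is given at the gene level.

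**Figure D4:**
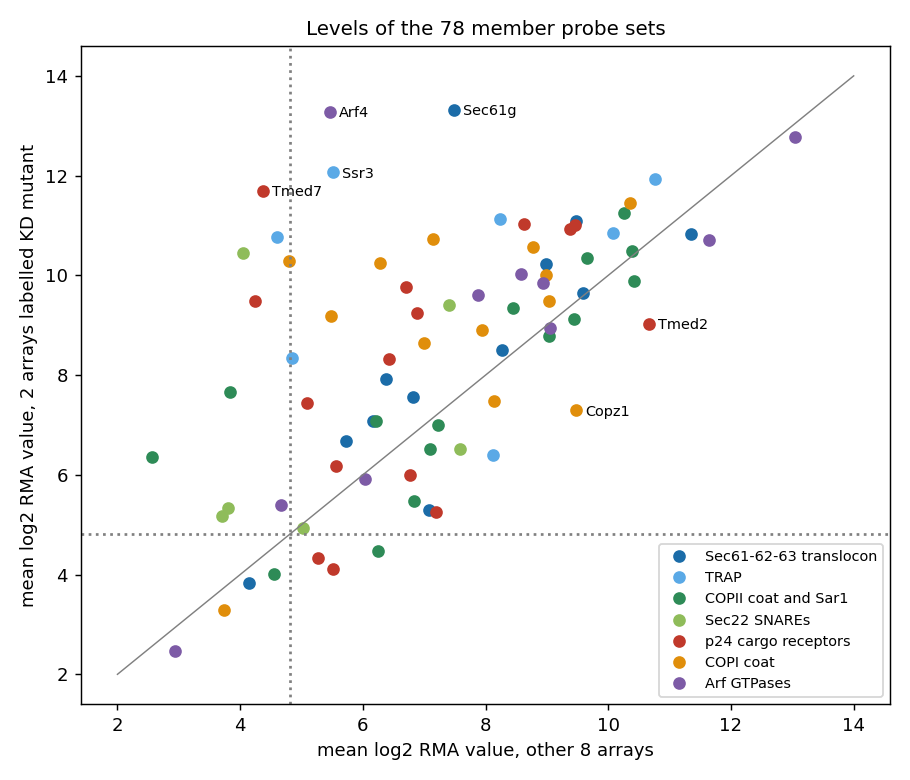
Mean log2 RMA value on the 2 arrays labelled KD mutant (vertical axis) against the mean on the other 8 arrays (horizontal axis) for the 78 member probe sets, coloured by role, with a line of equality and dotted lines at the filter level of 4.82. Most points lie above the line of equality, among them Arf4 at 5.46 and 13.28, while Tmed2 by its brighter probe set (10.67 and 9.03) and Copz1 (9.48 and 7.29) lie below.

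The 14 rises over 2 among the 65 members are counted by probe set. They came from Sec61g, Ssr1, Ssr3, Sec22b, Tmed2, Tmed4, Tmed9, Arcn1, Copa, Copb2, Copz2 and Arf4. Both probe sets of Tmed4 and 2 of Ssr3 were among them. Ssr3, Tmed2 and Arcn1 also had a probe set that was lower, at -1.69, -1.63 and -0.61. Copa entered through both ED mutant arrays, and its mean on the other 8 arrays was 4.80, just under the filter level.

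Other genes of the route were read from lists of partners. Outside the KD mutant, 1 gene of these lists was called, Mia2, a cargo export factor of the exit sites, by 1 probe set. It was 0.91 higher in wild type than with empty vector (adjusted p = 0.0486 in limma), with 0.0133% called over all. In that comparison 3 probe sets were called over all, and 1 without the filter. Mia2 lay near the threshold there and was not followed over the alternatives. In the mean of the 3 receptor groups it was 0.67 higher (adjusted p = 0.0187 in limma), with 0.2% called over all. The other tested probe set of Mia2 was dim and was not called in either comparison. Its means were 4.34 on the other 8 arrays and 6.48 on the KD mutant pair. The called probe set differed by -0.33 between the KD mutant and wild type. On the KD mutant arrays the lists are counted over the probe sets that reached the filter level without them, where 27% of all were higher and 61.5% lower. In the signal recognition particle and its receptor, which bring ribosomes to the channel, 8 of 12 rose and 4 fell. Srp14 rose by 6.57 and Srprb by 2.72 (adjusted p = 2.45e-11 and 1.95e-09 in limma), while Srp54a was at -1.01, -0.88 and 2.12 by its 3 probe sets. In signal peptidase and oligosaccharyltransferase, which process and glycosylate the entering chain, 11 of 20 rose and 5 fell, with Stt3b at 4.69 by 1 probe set and -1.21 by another, and Tram1 at -1.83 by the probe set that fell most. Tusc3 had a mean of 4.06 on the other 8 arrays and 10.5 on the KD mutant pair.

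Among regulators of the coats, 7 of 17 rose and 7 fell. Preb, the exchange factor of Sar1, stood at 2.64 and Arfgap3 at 2.60. Exchange factors of the Arf GTPases went both ways. Gbf1 fell by all 3 probe sets (-1.18, -0.53 and -0.67) and Arfgef1 by both (-1.11 and -1.91), while Arfgef2 rose by 0.41 (adjusted p = 0.0174 in limma). Of the other cargo receptors, tethers and SNAREs, 17 of 33 rose and 15 fell. Rises over 2 came from 6 of the 33, the largest from Scfd1 at 4.31, Lman2 at 3.83 and Kdelr2 at 3.47. The Golgi tether Golga2 was at -2.02, the 4 probe sets of Rab1b at -1.16 to -0.73 and both of the SNARE Stx5 at -0.89 and -1.10. The SNARE Bet1 was at 0.36 by 1 probe set, and its other had means of 3.82 on the other 8 arrays and 9.19 on the KD mutant pair, with 4.57 and 9.35 for Mcfd2.

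In folding and stress response genes of the endoplasmic reticulum, 21 of 32 rose and 9 fell. Xbp1, a transcription factor of the unfolded protein response, stood 4.42 higher and the chaperone partner Dnajb11 2.78 higher (adjusted p = 5.06e-12 and 8.05e-11 in limma). Other genes of the same response fell, with Atf4 at -0.86, Ddit3 at -1.10 and Herpud1 at -1.0. Atf6 was at -1.26 by 1 probe set and 1.21 by the other, and the chaperone gene Hspa5 was not called (-0.07). Median differences in these lists were 0.81, 1.18, -0.09, 0.36 and 0.87 in this order, beside 0.89 for the members and -0.78 for all such probe sets. The KD mutant arrays also differed in the smooth muscle, fibroblast and epithelial markers given above, and what part those differences had in any of these values was not tested.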

How the data were processed

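Total RNA was hybridised to 10 single-colour Affymetrix rat arrays, 2 for each of 5 groups. The authors deposited log2 values per probe set, from RMA according to the submitters' processing notes. The sources used here give neither its version nor whether the arrays were normalized jointly. RMA compresses differences at low signal, and precision is limited by the number of arrays.

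From these values, 57 control probe sets were left out and probe sets that reached log2 4.82, the 40th percentile over all arrays, on at least 2 of them were tested, 22502 in all. The model was limma's (version 3.58.1, under R 4.3.3: lmFit on 10 arrays with 5 group means, eBayes, 5 residual degrees of freedom, 11.4 after moderation) for 9 comparisons. P-values are two-sided and adjusted by the Benjamini-Hochberg method over all tested probe sets, and intervals are 95% intervals of the moderated fit for single probe sets. Genes were named from the platform annotation, and all 78 member probe sets matched the RefSeq gene table of GRCr8. Promoter sequences are RefSeq's, of GRCr8.

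Named with values are the called members of each comparison without the KD mutant, or the 3 with the lowest p where none was called, the 8 largest rises and 8 largest falls of the KD mutant, the brightest probe set of each role and genes called in both directions. Further members were picked with their values in view. The members and lists were chosen with earlier results of these data known. The model was tested on simulated data with 4 false calls, and all of 67 changes of 2 were recovered. Alternatives were quantile normalization, median centring, filtering at the 60th percentile or not at all, a trended and robust variance, a replicate block, an adjusted p under 0.01, 1 probe set per gene, only the arrays compared, no KD mutant arrays, and each array left out. Same-numbered arrays were checked for pairing: correlations of their deviations from group means were -0.029 to 0.143.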

Additional observations from a re-analysis of the deposited data

How the results depend on the processing

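The count of called members for the KD mutant against wild type was 44 to 70 over all alternatives (66 as reported, 44 of 47 with 1 probe set per gene), and 63 to 67 with 1 array left out. In it, Sec61a1 by 1382615_at was -0.41 after quantile normalization and Arf1 by 1367459_at was 0.15 after centring, each against the sign reported. Over all tested members, 4 took the other sign after quantile normalization, of which 0 had been called. After centring 7 did, of which 2 had been called, Arf1 by 1367459_at and Sec16a by 1398959_at. Trended and robust variance gave 1 member for wild type against empty vector (Tmed2), 3 for the CD mutant against empty vector (Tmed2, Tmed9, Ssr4), 4 for the ED mutant against empty vector (Tmed2, Sec62, Sec24c, Tmed5), 4 for the ED against the CD mutant (Tmed2, Sec61b and both probe sets of Tmed9), 3 for the mean of the 3 receptor groups and 5 for any difference among the 4 groups. Without the KD mutant arrays the ED mutant against empty vector called 2 members, Tmed2 and Sec62. No filter, an adjusted p under 0.01 and the replicate block each gave 0 members for the mean of the 3 receptor groups and 0 for any difference. With 1 array left out, the counts were 0 to 1 for the ED mutant against empty vector and 0 to 0 for the other 2; these fits assume that a lone array varies like the other groups. The cause of these differences was not tested. The replicate numbers do not pair the arrays; with the number as a block, Tmed2 kept its call in the ED mutant against empty vector (adjusted p = 0.0119 in limma) and lost those on the mean of the receptor groups (0.0533) and on any difference (0.0611). Over all probe sets the ED mutant against empty vector called 119, 493 with trended variance, 320 without the KD mutant arrays, 63 with only its own arrays and 19 to 37 with 1 array left out. For the ED mutant against wild type the counts were 37, 142 with trended variance and 0 with only its own arrays. Low signal limits what dim members can show, and with 2 arrays a group changes of 0.5 were mostly missed in simulation.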
